A study of Mus musculus with 4 samples.

Results

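Glycosaminoglycans are the long sulfated sugar chains that hold water in cartilage and bind growth factors around chondrocytes. A set of 40 mouse genes for their synthesis and sulfation was compared between growth plate chondrocytes with and without Ift88. The members are the enzymes of the linker, of the chondroitin and heparan chains and of chain modification, together with the genes that supply sulfate and sugar. They were taken from a list of symbols, by the gene symbol of each probe set. The list was drawn up with earlier results of these data known. Of the 40 genes 38 had a probe set that names them alone, 72 probe sets in all, among 18193 genes and 45101 probe sets on the array. Xylt1 and Ndst1 are not analysed here.

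The Cilia-deleted group was 2 samples of proliferative zone chondrocytes from Col2aCre;Ift88fl/fl mice, in which Cre driven by Col2a removes Ift88 from cartilage cells. The Control group was 2 samples of the same cells labelled wild-type, and whether these mice carried Cre or a floxed allele is not given in the sources used here. All mice were C57BL/6 at postnatal day 7. Cells of the zone were taken with a needle from 40 µm hindlimb sections, and 50 ng of RNA per sample was amplified in 2 rounds before hybridisation to Affymetrix arrays. How many animals went into a sample is not stated.

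A chain starts on a serine of a core protein with a short linker of xylose, galactoses and glucuronic acid. The next sugar decides whether chondroitin or heparan sulfate follows. Polymerases extend the chain, epimerases turn some glucuronic into iduronic acid, and sulfotransferases add sulfate from the donor PAPS. In cartilage most chains are the chondroitin sulfate of aggrecan, and heparan sulfate shapes the range of signals such as Indian hedgehog. Loss of several of these genes disturbs the growth plate: SLC26A2, PAPSS2, CHST3 and SLC35D1 are known from human skeletal dysplasias, and EXT1 and EXT2 from multiple osteochondromas.

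The values are log2 numbers, and for each probe set 0 is its median over the 4 arrays. They show how arrays differ and hold no expression level beyond a coarse class of the lowest original value. Whether chondrocyte markers are abundant therefore cannot be read from them. Of the member probe sets 34 were in the class of 8 or more, 30 in 4 to 8, 7 in 2 to 4, and 1 was not placed. The only probe sets of Xylt2 and Hs3st1 were in the 2 to 4 class, and that of Chst7 was not placed. Whether a low signal shaped their differences was not tested. The 15 chondrocyte markers had a median difference, Cilia-deleted minus Control, of 0.03. Of these markers 9 had higher and 6 lower means, from -0.54 (Comp) to 0.25 (Col2a1). Markers of blood and marrow (7 measured genes) had array medians of -0.30 and 0.21 in the Cilia-deleted arrays and of -0.45 and 1.34 in the Control arrays. Control 2 was the high array. Hypertrophic markers (6 measured genes) and osteoblast and perichondrium markers (4 measured genes) set the Cilia-deleted arrays apart from each other, with medians of 0.65 and -0.40 and of 0.59 and -0.64, against -0.27 and 0.11 and -0.10 and 0.20 in the Control arrays. All 5 muscle markers had lower means in the Cilia-deleted arrays (median difference -0.23). Their array medians were -0.02 and 0.00 in the Cilia-deleted arrays and -0.03 and 0.23 in the Control arrays. Groups lay apart in Myh3 and overlapped in Acta1, Tnnt3, Ckm and Myl1. The 3 endothelial markers had a median difference of 0.15, with array medians of -0.05 and 0.09 against -0.23 and 0.18 in the Control arrays. The part of such cells in the results was not tested, and in bulk samples fewer cells of a type and less RNA per cell cannot be told apart. Xist, the RNA of the inactive X chromosome, was at -3.79 and -3.61 in the Cilia-deleted arrays and at 3.58 and 3.74 in the Control arrays, so sex by this gene and genotype cannot be told apart. Of the members Chst7 and Hs6st2 lie on X. The single Ift88 value differed by 0.08 (95% interval -0.30 to 0.46), which is no test of the deletion, since the place of its probe set in the gene was not analysed here.

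No member passed an adjusted p of 0.05 in Cilia-deleted against Control samples, by limma's moderated test adjusted over all 18193 genes. Over all genes 0.011% passed, Xist among them, and 0 passed when genes on X and Y were left out. Of the 72 member probe sets 0 passed, where 0.0444% of all probe sets did. At an unadjusted p under 0.05, 1 member was higher (Dse) and 2 were lower (Chst15 and Slc26a2), which is 2.63% and 5.26% of the 38, against 2.29% and 3.68% of all genes. These shares are near the background.

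The members lay evenly around 0: 19 differences were positive and 19 negative (48.1% and 51.9% of all genes), with a median of 0.00 against -0.01 over all genes. Their range was -0.90 (Chst15) to 0.54 (Dse). Groups did not overlap in 5 members that were higher (Chsy3, Chpf, Ext1, Extl3 and Dse) and in 4 that were lower (Chst11, Chst14, Chst15 and Slc26a2), where 14.7% and 18.6% of all genes lay apart, so 13.2% and 10.5% of the members are both below the background. The 95% interval of the difference stayed within 2-fold both ways for 36 of 38 members (95% of all genes). The exceptions were Chst15, whose interval reached a 2.70-fold lower value, and Extl1.

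**Figure D1:**
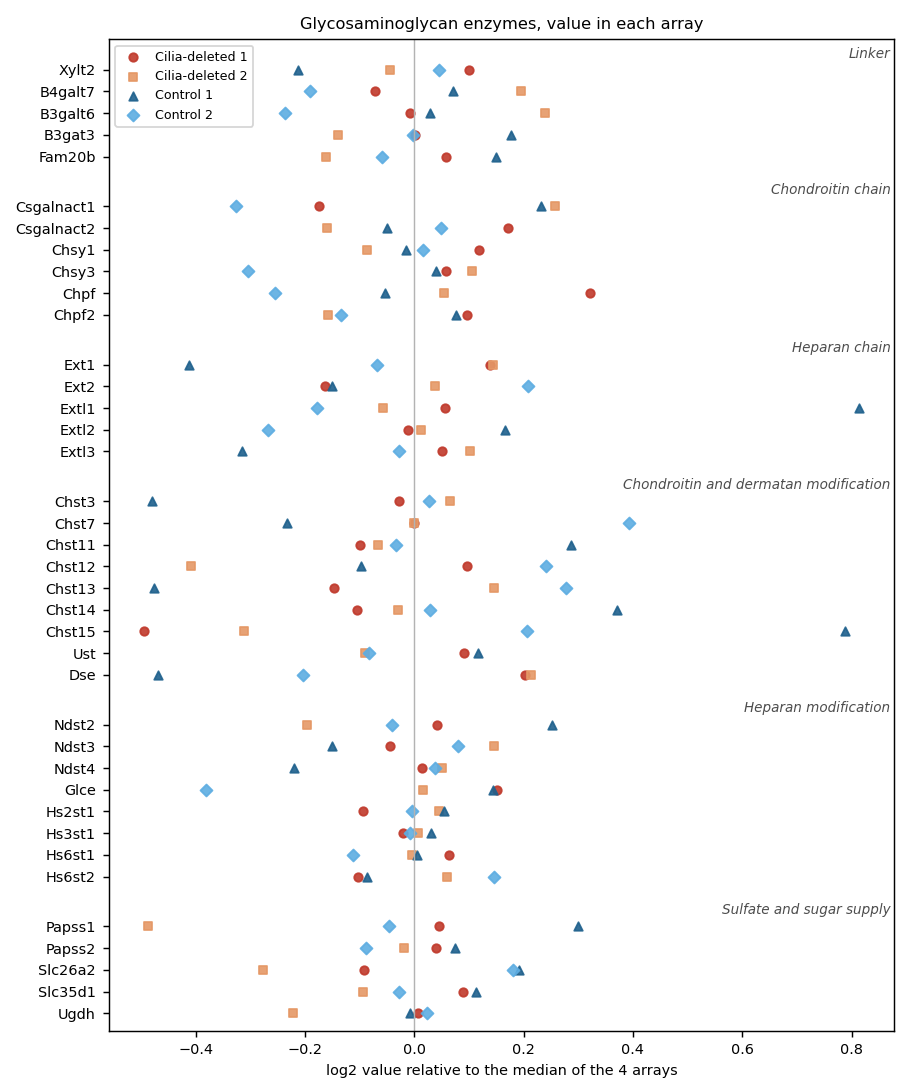
Value of each of the 38 measured enzyme genes in every array, as log2 with 0 at the median over the 4 arrays (x axis), with genes grouped by step down the page. Circles and squares are the Cilia-deleted arrays, triangles and diamonds the Control arrays. Control 1 (triangles) is the highest or lowest array for 24 of 38 genes.

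Control 1 was the highest or the lowest array for 24 of the 38 members (63.2%), against 66.5% of all genes. The gap between the 2 Control arrays was larger than the difference between the group means in 31 of 38 members (81.6%, against 66.8% of all genes). A gap between single arrays varies more than a difference between means of 2 arrays, even with no group effect. These sizes, and the SDs that follow, are therefore unlike measures, and the share over all genes is the reference. Over the members the SD of the group difference was 0.25, that of the gap between the Cilia-deleted arrays 0.21 and that of the gap between the Control arrays 0.36. Without Control replicate 1, 3 members were higher at an unadjusted p under 0.05 (Chsy3, Dse and Glce, 3.33% of all genes) and 2 lower (Chst7 and Chst15, 3.21% of all genes), and 0 passed after adjustment.

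**Figure D2:**
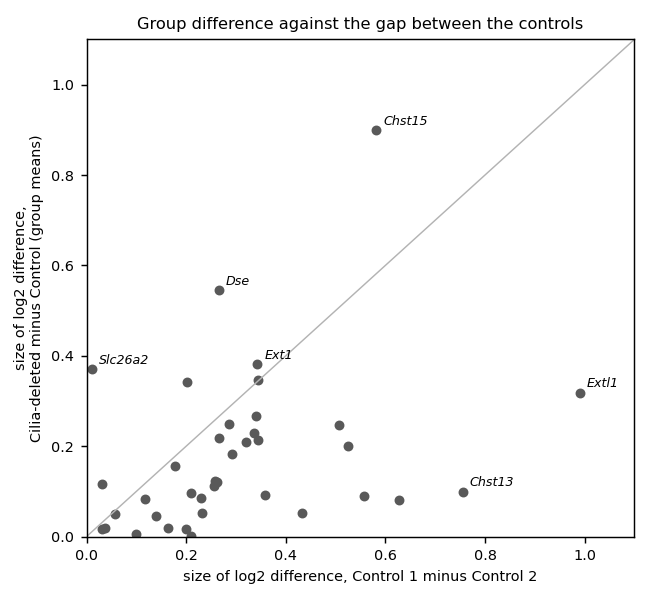
Size of the log2 difference between the Cilia-deleted and Control means (y axis) against the size of the log2 gap between Control 1 and Control 2 (x axis), with 1 point per enzyme gene and a line of equality. 31 of 38 genes lie below the line, and Chst15, Dse and Slc26a2 lie above it. A gap between single arrays varies more by construction than a difference between means, so the line is no threshold.

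The linker genes overlapped between the groups in all 5 that were measured. Xylt2, which adds the first xylose, differed by 0.11 (SE 0.149) and B4galt7, which adds the first galactose, by 0.12 (SE 0.163). B3gat3, which adds the closing glucuronic acid, was at -0.16, and Fam20b, the kinase that phosphorylates the xylose, at -0.10. The largest difference was that of B3galt6, which adds the next galactose. It was at -0.01 and 0.24 in the Cilia-deleted arrays and at 0.03 and -0.24 in the Control arrays (difference 0.22, SE 0.161, adjusted p = 0.952). Each group holds 1 array near 0, so the groups overlap. The mean covers 3 probe sets that disagree: 1435252_at was at 0.12 and 0.57 in Cilia-deleted and at -0.12 and -0.67 in Control arrays, a 1.67-fold higher value, while the others differed by -0.02 and -0.06.

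Of the 6 chondroitin chain genes 5 had positive differences, with a median of 0.05. Csgalnact1 and Csgalnact2 add the first N-acetylgalactosamine and so commit the linker to chondroitin. Csgalnact1 was at -0.17 and 0.26 in the Cilia-deleted arrays and at 0.23 and -0.33 in the Control arrays, a spread within each group larger than its difference of 0.09 (SE 0.239). Csgalnact2 differed by 0.01 (95% interval -0.38 to 0.39). The polymerase Chsy1 was at 0.12 and -0.09 in the Cilia-deleted arrays and at -0.02 and 0.02 in the Control arrays. Its difference of 0.02 had an interval of -0.32 to 0.35, which leaves room for changes of up to 1.28-fold.

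Groups lay apart in a pair of chain genes. Chpf, a polymerising factor that works with the synthases, was at 0.32 and 0.05 in the Cilia-deleted arrays and at -0.05 and -0.25 in the Control arrays (difference 0.34, SE 0.156, adjusted p = 0.869). Both Cilia-deleted values are higher, the lower of them by little. Chsy3, a further synthase, was at 0.06 and 0.11 in the Cilia-deleted arrays and at 0.04 and -0.30 in the Control arrays (difference 0.21, SE 0.158), and without Control replicate 2 the difference was 0.04. Of its probe sets 1429417_at was 1.40-fold higher and 1441554_at 1.04-fold lower. Chpf2 was at 0.00, the smallest difference of the step.

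Ext1 had the largest difference among the heparan chain genes. Together with Ext2 it forms the polymerase of heparan sulfate. Ext1 was at 0.14 and 0.14 in the Cilia-deleted arrays and at -0.41 and -0.07 in the Control arrays (difference 0.38, SE 0.158, 95% interval -0.01 to 0.77, adjusted p = 0.830). The Cilia-deleted arrays nearly coincide above both Control arrays, and both probe sets of the gene were higher, by 1.23-fold and 1.37-fold. The value rests in part on Control 1: without it the difference was 0.21, and without Control replicate 2 it was 0.55.

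Its partner Ext2 did not share this pattern, with -0.16 and 0.04 in the Cilia-deleted arrays and -0.15 and 0.21 in the Control arrays (difference -0.09, SE 0.171). Probe set 1460170_at of Ext2 was 1.17-fold lower with groups apart. The others, 1447319_at and 1447743_x_at, overlapped between the groups and differed by 0.00 and -0.05. Extl3, which adds the first N-acetylglucosamine of a heparan chain, was at 0.05 and 0.10 in the Cilia-deleted arrays and at -0.31 and -0.03 in the Control arrays (difference 0.25, SE 0.148), with both probe sets higher. Extl2, a related transferase, differed by 0.05. Extl1 was at 0.06 and -0.06 in the Cilia-deleted arrays and at 0.81 and -0.18 in the Control arrays, so that Control 1 alone set its difference of -0.32 (0.18 without Control replicate 1 and -0.81 without Control replicate 2).

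Chondroitin and dermatan modification held the largest negative and the largest positive difference of all members. Chst15 makes the doubly sulfated unit of chondroitin sulfate E by adding a further sulfate to a galactosamine that already carries one. The gene lies at chr7:132235779-132323534 (GRCm38.p6). It was at -0.49 and -0.31 in the Cilia-deleted arrays and at 0.79 and 0.21 in the Control arrays, which is 1.87-fold lower (difference -0.90, SE 0.216, n = 2 per group, adjusted p = 0.583). Both Cilia-deleted arrays lie below both Control arrays, and Control 1 is the higher Control array. Both probe sets had this order: 1426514_at was 1.80-fold and 1452092_at 1.93-fold lower. Leaving out each array in turn gave -1.19 to -0.61.

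Dse, the epimerase that turns glucuronic into iduronic acid and so chondroitin into dermatan sulfate, lies at chr10:34151389-34208282. Its single probe set was at 0.20 and 0.21 in the Cilia-deleted arrays and at -0.47 and -0.20 in the Control arrays, which is 1.46-fold higher (difference 0.54, SE 0.144, adjusted p = 0.663). The Cilia-deleted arrays are alike and lie above both Control arrays. Leaving out each array in turn gave 0.41 to 0.68.

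**Figure D3:**
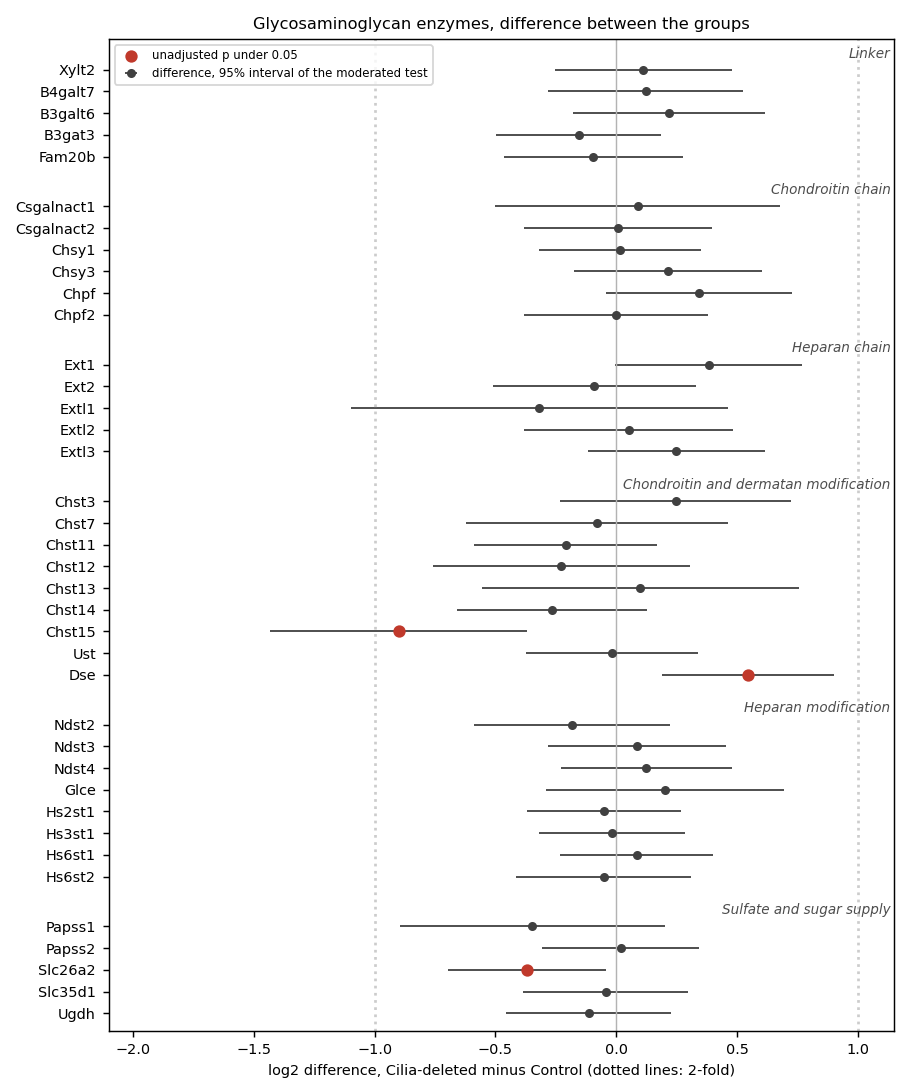
Difference between the Cilia-deleted and Control means (x axis, log2) for each of the 38 measured enzyme genes, with the 95% interval of the moderated test. Red points mark the 3 genes with an unadjusted p under 0.05 (Chst15, Dse and Slc26a2), and dotted lines mark 2-fold.

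The main sulfotransferases of cartilage chondroitin had smaller differences. Chst11, whose loss in mice gives a severe chondrodysplasia, adds the 4-sulfate. It was at -0.10 and -0.07 in the Cilia-deleted arrays and at 0.29 and -0.03 in the Control arrays (difference -0.21, SE 0.154, adjusted p = 0.952). The groups lie apart by little, and without Control replicate 1 the difference was -0.05. Chst12 and Chst13, which add the same sulfate, differed by -0.23 and 0.10. Their groups overlapped, and the sign for Chst13 turned with the Control array left out (-0.28 without Control replicate 1 and 0.48 without Control replicate 2).

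Chst3 and Chst7 add the 6-sulfate. Chst3 was at -0.03 and 0.07 in the Cilia-deleted arrays and at -0.48 and 0.03 in the Control arrays (difference 0.25, SE 0.194, adjusted p = 0.956). Only Control 1 stood apart, and without it the difference was -0.01. Chst7 was at 0.00 in both Cilia-deleted arrays and at -0.23 and 0.39 in the Control arrays, with a difference of -0.08. Chst14, the 4-sulfotransferase of dermatan, was lower with groups apart (-0.27, SE 0.159, and -0.10 without Control replicate 1). Ust, which sulfates the uronic acid, differed by -0.02. Of the 9 genes of the step 3 differences were positive and 6 negative, with a median of -0.08.

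Heparan modification genes ran from -0.18 to 0.20 over 8 genes, 4 above and 4 below 0, and the groups overlapped in each of them. Ndst2, Ndst3 and Ndst4, which replace the acetyl group of glucosamine by sulfate, differed by -0.18, 0.09 and 0.12. Hs3st1, Hs6st1 and Hs6st2, which add sulfate to the sugar rings at later steps, differed by -0.02, 0.08 and -0.05. Glce, the epimerase of heparan sulfate, was at 0.15 and 0.02 in the Cilia-deleted arrays and at 0.14 and -0.38 in the Control arrays (difference 0.20, SE 0.2, adjusted p = 0.984). Control 2 alone was low. Hs2st1, which sulfates the iduronic acid that Glce makes, was at -0.09 and 0.05 in the Cilia-deleted arrays and at 0.05 and 0.00 in the Control arrays (difference -0.05, SE 0.129).

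For both of these genes the mean hides probe sets of unlike behaviour. Probe set 1428374_at of Glce was 1.55-fold higher, with groups apart, while 1425876_a_at and 1440386_at differed by 0.00 and -0.03. Probe set 1422739_at of Hs2st1 was 1.43-fold lower and 1440905_at 1.21-fold higher, each with groups apart, and the other two differed by 0.03 and 0.00. Which of these probe sets reads the transcript in use was not tested.

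Sulfate and sugar supply genes had a median of -0.12, with 4 of 5 differences negative. Slc26a2, the transporter that brings sulfate into chondrocytes, was at -0.09 and -0.28 in the Cilia-deleted arrays and at 0.19 and 0.18 in the Control arrays, which is 1.29-fold lower (difference -0.37, SE 0.133, 95% interval -0.70 to -0.04, adjusted p = 0.818). The Control arrays nearly coincide, with a gap of 0.01, and both Cilia-deleted arrays lie below them. All 3 probe sets were lower with groups apart, by 1.24-fold, 1.43-fold and 1.22-fold. Leaving out each array in turn gave -0.46 to -0.28.

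Papss1 and Papss2 make PAPS from sulfate. Papss2, the form known for its role in cartilage, was at 0.04 and -0.02 in the Cilia-deleted arrays and at 0.07 and -0.09 in the Control arrays. The groups overlap and the difference of 0.02 had an interval of -0.31 to 0.34 (adjusted p = 1). Its 4 probe sets ran from 1.28-fold higher (1421989_s_at) to 1.19-fold lower (1421987_at). Papss1 was at 0.05 and -0.49 in the Cilia-deleted arrays and at 0.30 and -0.05 in the Control arrays (difference -0.35, SE 0.222), and without Cilia-deleted replicate 2 the difference was -0.08. Slc35d1, which carries UDP-sugars into the Golgi and endoplasmic reticulum lumen, was at 0.09 and -0.09 in the Cilia-deleted arrays and at 0.11 and -0.03 in the Control arrays (difference -0.04, SE 0.139). Ugdh, which makes UDP-glucuronic acid, was at 0.01 and -0.22 in the Cilia-deleted arrays and at -0.01 and 0.02 in the Control arrays, so that Cilia-deleted 2 alone was low.

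Probe sets of a gene were a second reading of each array. Of the 22 members with 2 or more probe sets, all of them were higher in 7 (B4galt7, Csgalnact1, Ext1, Extl2, Extl3, Ndst3 and Ndst4) and all lower in 4 (B3gat3, Chst11, Chst15 and Slc26a2). In the other 11 they lay on both sides of 0. Among the 72 probe sets 4 were higher and 4 lower at an unadjusted p under 0.05, where 3% and 3.18% of all probe sets were, so each is 5.56% of the members' probe sets. The 4 that were higher belong to Dse, Chsy3, Glce and B3galt6, and the 4 that were lower to Chst15 (2 probe sets), Hs2st1 and Slc26a2. Probe sets of a gene share the array and its RNA, so they are no further samples.

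**Figure D4:**
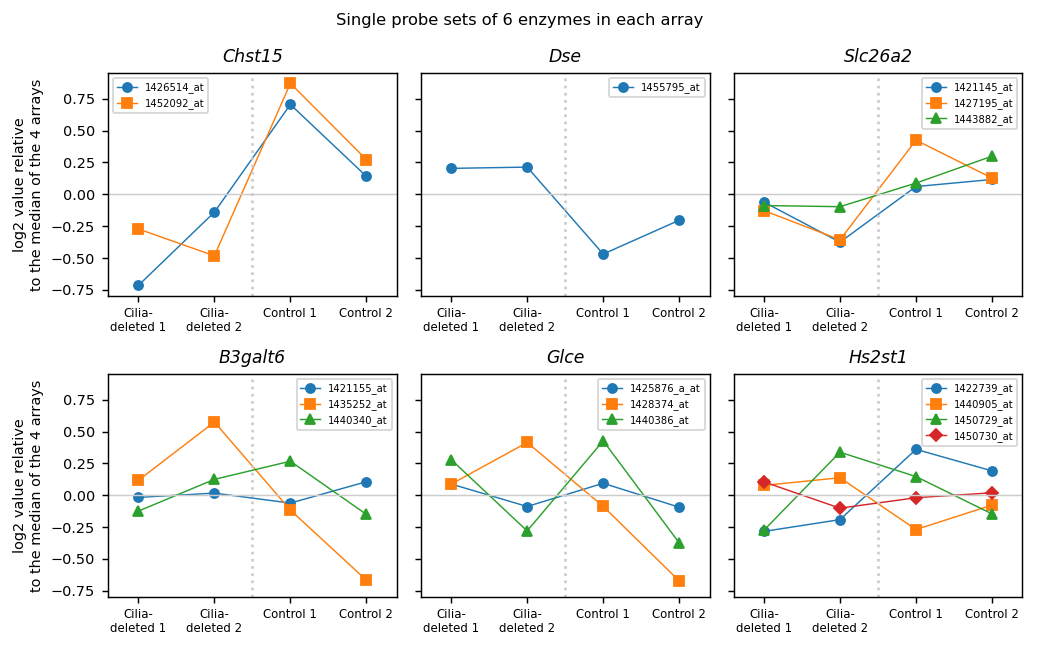
Values of the single probe sets of 6 enzyme genes in each array (y axis, log2, with 0 at the median over the 4 arrays), with Cilia-deleted arrays left of the dotted line. The probe sets of Chst15 and of Slc26a2 keep the same order between the groups, and those of B3galt6, Glce and Hs2st1 do not.

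The bases before the transcription start are shown for the members with the largest negative and the largest positive difference. Each is the 250 bases upstream of the start in RefSeq on GRCm38.p6, minus strand, chr7:132317229-132317478 for Chst15 (the more upstream of its 2 starts in the promoter set) and chr10:34207236-34207485 for Dse. Both lie within the span annotated for the gene, which reaches further upstream. Capitals mark a GC box (GGGCGG or CCGCCC), the letters bound by Sp1-type factors.
Chst15: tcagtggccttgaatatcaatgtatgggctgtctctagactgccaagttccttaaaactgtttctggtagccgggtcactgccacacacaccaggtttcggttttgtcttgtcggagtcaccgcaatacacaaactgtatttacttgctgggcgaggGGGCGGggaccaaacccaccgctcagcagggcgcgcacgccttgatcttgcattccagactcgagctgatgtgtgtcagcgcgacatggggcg
Dse: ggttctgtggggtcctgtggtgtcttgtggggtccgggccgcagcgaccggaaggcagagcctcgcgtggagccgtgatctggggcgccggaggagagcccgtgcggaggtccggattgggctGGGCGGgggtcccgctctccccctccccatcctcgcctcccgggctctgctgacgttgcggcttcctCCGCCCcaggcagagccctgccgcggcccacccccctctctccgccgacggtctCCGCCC

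The Chst15 stretch is 54.8% G and C and holds 1 GC box, and that of Dse is 74.4% with 3. Among the RefSeq records 32 of the 38 members had a window, 40 windows in all, and 60% of these held a GC box on either strand, against 32.7% of all 32851 windows. Genes with several starts count more than once, and the windows were not matched for G and C content. Whether the members exceed windows of like content was not tested. The consensus of the Hedgehog-regulated GLI factors (GACCACCCA, either strand) was in 0 of the 40 windows and in 0.225% of all. The core that hypoxia-inducible factors bind (ACGTG, either strand) was in 17.5% of the members' windows and 16.6% of all, and the SOX core (ACAATGG, either strand) in 0 and 3.02%. None of the last 3 motifs was in the printed stretches. A match is a description of letters and no match says only that these letters are not in the window.

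Genes around the pathway gave 0 that passed adjustment in any of 5 lists. At an unadjusted p under 0.05, 2.29% of all genes were higher and 3.68% lower. Whether any of these short lists exceeds that background was not tested. Among 14 further sulfotransferases and related enzymes, 1 was higher and 1 lower at an unadjusted p under 0.05: Pxylp1, the phosphatase that removes the linker phosphate set by Fam20b, differed by 0.40 (SE 0.132), and Hs3st3a1, a heparan sulfotransferase, by -0.46 (SE 0.154). Among 16 further sugar and sulfate supply genes and 15 genes of desulfation and breakdown there was none at that p, with medians of -0.01 and -0.04. Of 8 hyaluronan genes 1 was higher: Cemip2, a cell surface hyaluronidase in mouse, by 0.48 (SE 0.155).

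The 23 core proteins had a median of 0.04, with 2 higher and 2 lower at an unadjusted p under 0.05. Over all genes 2.29% were higher and 3.68% lower at that p. Aggrecan (Acan), which carries most chondroitin sulfate of cartilage, differed by 0.00 (SE 0.122). Glypican Gpc3, a heparan sulfate carrier encoded on X, was at -0.54 and -0.34 in the Cilia-deleted arrays and at 0.87 and 0.34 in the Control arrays, 2.06-fold lower (difference -1.04, SE 0.207, adjusted p = 0.424). Decorin (Dcn), a dermatan sulfate carrier, was at 0.26 and 0.22 in the Cilia-deleted arrays and at -1.25 and -0.17 in the Control arrays (difference 0.95, SE 0.34, adjusted p = 0.818), with Control 1 far below the rest. Serglycin (Srgn), the proteoglycan of blood cell granules, differed by -0.57 (SE 0.211) with Control 2 highest, the array that was also highest in the blood and marrow markers. Syndecan Sdc1 differed by 0.35 (SE 0.124).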

How the data were processed

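The deposited values are log2 numbers made by the authors with RMA, per the submitters' processing notes, which give no version. The log base is not stated and was inferred from the values. Each probe set's 4 deposited values have a median of 0 (largest departure 5.00e-07), so levels are lost, apart from the coarse class described below. The number of arrays limits the precision. From the values, 64 control probe sets were left out, and probe sets with 1 gene symbol were averaged per gene (34945 probe sets, 34741 with a record in RefSeq GRCm38.p6). Each gene, and each of 45037 probe sets, was fitted in limma 3.58.1 (R 4.3.3) on the group, with eBayes moderation without trend (3.83 prior and 2 residual degrees of freedom), two-sided, Benjamini-Hochberg adjusted over all genes or all probe sets. The threshold was 0.05. With 2 arrays against 2 an exact permutation test cannot reach it. The p-values rest on the spread between these samples, drawn by the moderation toward a spread shared over all genes. The design calls the samples biological replicates. The probe set class used as an alternative (lowest original value 8 or more) was read from the number steps of the values and is coarse, since 21.9% of it also fitted the next coarser step. The analysis was tested on simulated data. The simulation gave all arrays of a gene the same spread, so it could not test the effect of an outlying array or of sex. The members, lists and settings were chosen with earlier results of these data known. Members were given in every array where the gene or 1 of its probe sets had an unadjusted p under 0.05, where they led their step, or from a fixed set of cartilage genes, and others where groups lay apart or 1 array stood out. At most 4 genes per surrounding list were named by that p, and Acan was added after its value was seen.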

Additional observations from a re-analysis of the deposited data

How the results depend on the processing

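With 2 arrays a group, only large differences can pass. The count of 0 members past adjusted p 0.05 held under every alternative, an adjusted p of 0.1 and each left-out array included. Over all genes 2 passed, against 14 after renewed quantile normalization, 8 with the probe set of largest variance, 6 with the brightest class only, 11 at an adjusted p of 0.1, 1 without moderation, 0 without genes on X and Y, and 2 to 56 without single arrays. Of all probe sets 20 passed, against 2 without moderation and 9 to 12 without single arrays. At an unadjusted p under 0.05, 1 member was higher (2.29% of all genes): 2 were after renewed normalization, array median subtraction or with the brightest class (24 members; 2.36% to 3.61% of all genes in these fits), 3 with the probe set of largest variance (3.05%), 0 without moderation (2.11%) and 1 to 5 without single arrays (1.31% to 6.26%, with the 5 without Control replicate 2, where 6.26% of all genes were). Of the lower, 2 (3.68% of all genes) became 0 without moderation (2.6%) and 1 to 4 without single arrays, with the 4 without Control replicate 2, where 10% of all genes were lower. Dse and Chst15 were among the members called in each fit that made any call, and Slc26a2 was missing in each fit that left out an array. The member median of 0.00 ran from -0.0484 to 0.0192 without single arrays. The labels do not say that a replicate number marks a shared animal, batch or day, and the correlation of deviations (0.14) over 2 pairs does not settle it. With the replicate block 1 gene and 5 probe sets passed an adjusted p of 0.05. At an unadjusted p under 0.05 in that fit, 2 members were higher (Chpf and Dse) and 2 lower, where 2.42% and 4.52% of all genes were.

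Of 15 members followed through the settings 8 kept their sign wherever they had a value. Ext1 and Chst3 have none with the brightest class. Without single arrays Csgalnact1 ran from -0.19 to 0.37, Chsy1 from -0.0871 to 0.12, Chst3 from -0.00747 to 0.50, Glce from -0.0612 to 0.46, Hs2st1 from -0.12 to 0.0200, Papss2 from -0.0630 to 0.10 and Slc35d1 from -0.14 to 0.0464. With the probe set of largest variance Papss2 was at -0.25 and Slc35d1 at 0.0240. With the brightest class Hs2st1 was at 0.0167 and Papss2 at 0.20. The cause of these moves was not tested.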
